A study of Mus musculus with 10 samples.

Results

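Keratin genes of mouse chromosomes 11 and 15 were examined for accessible chromatin in immortalized mouse embryo fibroblasts (iMEF). The set was made of every protein-coding gene on these chromosomes whose symbol reads Krt, a number and at most 1 letter. This gave 53 of 21938 protein-coding genes, 26 on chromosome 15 and 27 on chromosome 11. The sites were the 153924 regions of the authors' list of all ATAC-seq peaks, of which 153682 lay on chromosomes 1 to 19, X and Y.

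In ATAC-seq the Tn5 transposase cuts accessible DNA, so that enriched fragments mark open chromatin. The 10 libraries came from the cell clone NG3, in which Cre-ER had recombined both floxed alleles of endogenous Ash2l and a lentivirus supplied FKBP12 F36V fused to HA tags and human ASH2L. ASH2L is a subunit of the KMT2 histone methyltransferase complexes, and dTAG-13 is a PROTAC that leads to the degradation of the fusion protein. Groups of 2 libraries each were untreated (ethanol in the methods) or had received dTAG-13 for 24 h, 8 h, 4 h or 30 min, and every group carries the deletion, the fusion and the origin from 1 clone. The list pools all libraries and gives positions only, so the depth is unknown, no value belongs to a time point or a replicate, and all comparisons are descriptions without a test.

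Keratins form the intermediate filaments of epithelial cells, which assemble from obligate pairs of an acidic type I and a basic type II chain. In the mouse the type I genes lie together on chromosome 11, and the type II genes lie on chromosome 15 with 1 type I gene, Krt18, at the end of the cluster beside its partner Krt8. Which pair a cell makes depends on the epithelium, from simple epithelia to the layers of the epidermis and the hair follicle, and fibroblasts typically build filaments of vimentin instead.

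Of the 53 keratin genes, 16 had an accessible site within 1 kb of an annotated start, which is 30.2% (95% Wilson interval 19.5 to 43.5%). The same rule found a site for 70.8% of all protein-coding genes. The remaining 37 keratin genes had no site in this window. Wilson intervals here cover only the sampling of genes, which are not independent replicates. The number of genes passing the rule was 9 of 26 (34.6%) on chromosome 15 and 7 of 27 (25.9%) on chromosome 11, beside 80.9% of coding genes on the whole of chromosome 15 and 77.7% on the whole of chromosome 11. The intervals of the 2 clusters, 19.4 to 53.8% and 13.2 to 44.7%, overlapped.

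Sequences just upstream of a start are given for 4 keratin genes to show where accessible DNA lay at Krt8, Krt18 and 2 type II genes of the cluster's interior. Capitals mark bases inside an accessible site, lower case marks bases outside, and each run holds the 250 bases before the start of the protein-coding transcript, written 5′ to 3′ on the strand of the gene (GRCm38, RefSeq assembly). The runs are chr15:102004483-102004732 (minus strand) for Krt8, chr15:102027930-102028179 (plus strand) for Krt18, chr15:101573905-101574154 (minus strand) for Krt75 and chr15:101712899-101713148 (minus strand) for Krt5.
Krt8: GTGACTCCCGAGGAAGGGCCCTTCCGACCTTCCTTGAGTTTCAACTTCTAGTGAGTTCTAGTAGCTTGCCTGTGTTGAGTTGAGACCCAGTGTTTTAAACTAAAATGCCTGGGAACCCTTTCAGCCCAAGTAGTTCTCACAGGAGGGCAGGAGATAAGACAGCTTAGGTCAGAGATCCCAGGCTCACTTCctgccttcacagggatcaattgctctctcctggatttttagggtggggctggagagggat
Krt18: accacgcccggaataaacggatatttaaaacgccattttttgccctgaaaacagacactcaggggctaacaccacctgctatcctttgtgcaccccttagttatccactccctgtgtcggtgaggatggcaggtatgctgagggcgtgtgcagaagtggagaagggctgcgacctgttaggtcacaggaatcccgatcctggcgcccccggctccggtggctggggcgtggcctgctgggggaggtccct
Krt75: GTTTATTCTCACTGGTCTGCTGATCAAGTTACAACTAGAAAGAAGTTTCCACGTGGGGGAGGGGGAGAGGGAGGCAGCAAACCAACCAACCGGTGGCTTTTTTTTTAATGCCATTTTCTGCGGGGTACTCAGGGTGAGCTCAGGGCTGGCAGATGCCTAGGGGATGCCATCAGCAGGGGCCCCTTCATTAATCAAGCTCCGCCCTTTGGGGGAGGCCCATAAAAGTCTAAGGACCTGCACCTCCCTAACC
Krt5: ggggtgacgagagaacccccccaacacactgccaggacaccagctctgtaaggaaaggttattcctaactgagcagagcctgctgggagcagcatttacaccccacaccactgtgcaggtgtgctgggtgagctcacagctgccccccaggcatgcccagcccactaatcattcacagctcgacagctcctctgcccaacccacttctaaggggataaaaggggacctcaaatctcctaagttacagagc
In the Krt8 run, 190 of 250 bases fell in a site and the 60 bases next to the start did not. The Krt18 and Krt5 runs had 0 bases in a site, whereas all 250 bases of the Krt75 run were accessible.

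Krt8, the type II keratin of simple epithelia, had 1 site, chr15:102004543-102005783, which was 1241 bp wide. This site began 61 bp upstream of the only GENCODE start of Krt8, at position 102004482. The RefSeq start of Krt8, at position 102004342, was 201 bp from the site. Krt18, the type I partner of Krt8, had 0 sites within 1 kb of its start at position 102028180. The nearest site, chr15:102023628-102024465, lay 3715 bp upstream of that start. Thus the genes of this pair differed in their starts although they are neighbours. Of the 50-base words in the windows of the 2 genes, 10.6% (Krt8) and 3.55% (Krt18) occur elsewhere in the genome, where short reads cannot be placed with certainty. No site overlapped the gene body of Krt8 or of Krt18.

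These genes point away from each other, and the DNA between their starts was rich in sites. The interval of 23.7 kb held 7 sites that covered 21.6% of it. Among the 51 intervals between the 5′ ends of neighbouring keratin genes this share ranked 2, behind 21.9% between Krt15 and Krt19, and the median was 6.29%. The sites of this interval were thus shared by the simple epithelial pair, but only the Krt8 start had one within 1 kb. The distance at Krt18, 3715 bp, was close to the keratin median of 3749 bp. A lincRNA gene, Gm36026, also starts within 1 kb of the site at Krt8, so the site cannot be assigned to Krt8 alone. The same limit holds for the sites given below over starts of Krt80, Krt7 and Krt10. Within 1 kb of these start Mir1941, Gm671 and Gm11940, respectively.

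The site at Krt8 held 3 matches to the AP-1 motif, which is bound by FOS and JUN family dimers. The search used TGACTCA and TGAGTCA on both strands, and the matches are shown with 10 bases on either side to give their context, on the plus strand of the build, with the motif in capitals.
Krt8 site match 949 bp upstream: gccagggcagTGACTCAtggtgccttg
Krt8 site match 989 bp upstream: ctgctggtggTGACTCAttctccagcc
Krt8 site match 1115 bp upstream: attatcagagTGAGTCAggagaacaag
All 3 lay in the part of the site distant from the start, at chr15:102005431-102005437, chr15:102005471-102005477 and chr15:102005597-102005603. Such a match is a description of letters and does not show binding.

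**Figure D1:**
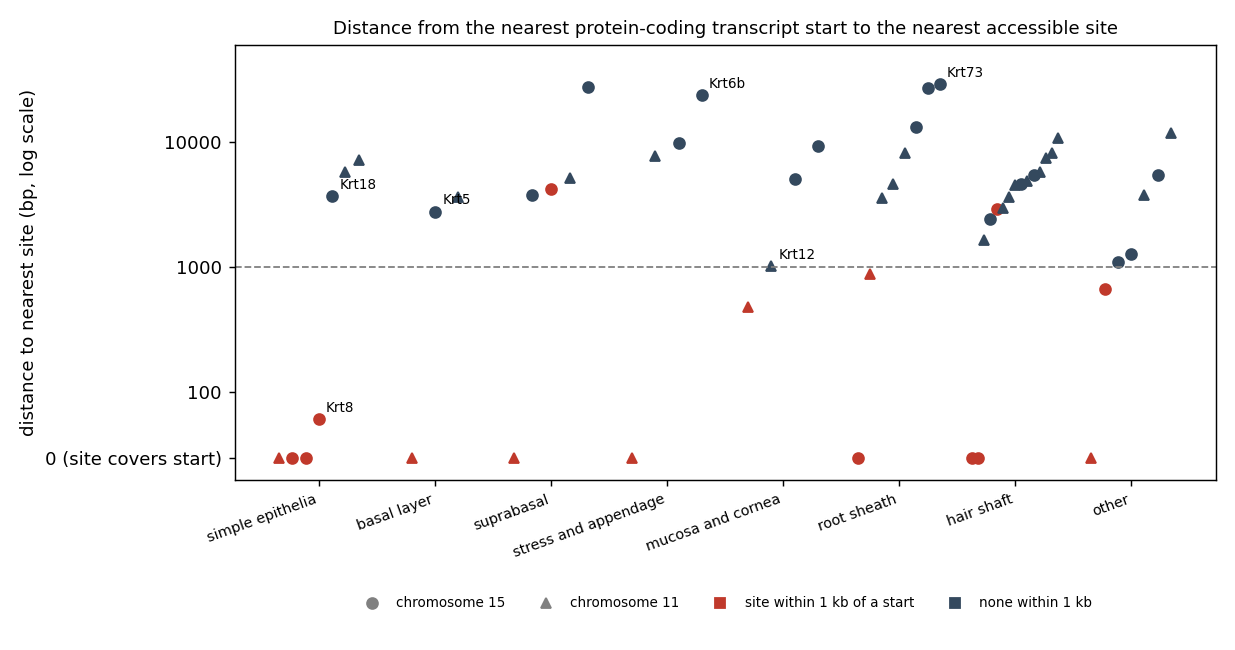
Distance in bp (log scale, with 0 drawn at the bottom) from the nearest start of a protein-coding transcript to the nearest accessible site for each of the 53 keratin genes, grouped by where the keratin is known to be made. Circles are genes of chromosome 15, triangles genes of chromosome 11, red marks a site within 1 kb of any start and the dashed line is 1 kb. Krt8 sits at 61 bp and Krt18 at 3715 bp, and the most distant gene, Krt73, sits at 29001 bp.

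Among the 7 keratins of simple and related epithelia, 4 had a site within 1 kb of a start. Krt80 had the widest site of the chromosome 15 cluster, 2260 bp at chr15:101368632-101370891, which covered 1 of its 4 annotated starts, that at the 5′ end of the gene. Krt7, the type II keratin of ducts and glands, had a site of 948 bp at chr15:101410650-101411597 that covered 3 of its 5 annotated starts, 1 of them of a protein-coding transcript. Krt19, a small type I keratin without a tail domain, had the widest site of the chromosome 11 cluster, 1755 bp at chr11:100145035-100146789, which covered the start of its protein-coding transcript. A further site of 729 bp, chr11:100147423-100148151, lay 514 bp from an upstream noncoding start. Krt7 and Krt19, often made together, therefore both had a site over a start in the GENCODE annotation, in contrast to Krt8 and Krt18. For Krt7 this depended on the annotation, since its RefSeq start lay 806 bp from the nearest site. Krt20 of the gut epithelium and Krt23 had their nearest sites 7191 bp and 5808 bp away.

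In the basal layer of stratified epithelia the pair is Krt5 and Krt14, with Krt15 as a further type I chain. Krt5 had its nearest site 2776 bp upstream of its start and Krt14 had it 3632 bp downstream, so neither met the rule. Krt15 differed from both, with a site of 431 bp at chr11:100135807-100136237 that covered its coding start.

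Keratins of the suprabasal epidermis had a site at 2 of 5 genes, in each case away from the 5′ end and nearer to the 3′ end of the gene. The site of Krt10, 1293 bp at chr11:99385502-99386794, covered the internal start of a shorter coding transcript and lay 2570 bp from the 5′ end. At Krt1, the partner of Krt10, the site of 883 bp at chr15:101845700-101846582 lay 12 bp from a noncoding start and 4212 bp from the start of the protein-coding transcript. The nearest sites were 27531 bp away at Krt2 and 5142 bp away at Krt9, a keratin of palms and soles. At Krt77 the distance was 3780 bp. No gene of this group had a site within 1 kb of its 5′ end.

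Keratins induced on wounding or made in skin appendages are Krt6a, Krt6b, Krt16 and Krt17, and 1 of these 4 had a site. Krt16 had a site of 867 bp, chr11:100248802-100249668, that covered its start. Its usual partners Krt6a and Krt6b were 9778 bp and 23798 bp from a site, and Krt17 was 7734 bp away. In the windows of Krt6a, Krt6b and Krt16, 30%, 28.9% and 22.5% of the 50-base words occur more than once in the genome, and the part of this in the missing sites was not tested. Windows with over 20% of such words were found at 5 keratin genes, the others being Krt81 (27.4%) and Krt86 (21.8%). A site was present at 2 of the 5, Krt16 and Krt86. Without these 5 genes, 14 of 48 keratins (29.2%) had a site.

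Of the mucosal and corneal keratins, 1 of 4 had a site. Krt13 had a site of 955 bp in its intron, chr11:100120131-100121085, which covered a noncoding start and lay 481 bp from the start of the coding transcript. Its mucosal partner Krt4 was 5100 bp from a site, and Krt76 of the palate was 9365 bp from a site. Krt12, the type I keratin of the cornea, missed the rule narrowly at 1023 bp. Just outside the limit were also Krt90 at 1098 bp, Krt78 at 1280 bp and Krt32 at 1649 bp, and just inside were Krt25 at 888 bp and Krt79 at 669 bp.

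Inner root sheath and companion layer keratins, which shape the growing hair, had a site at 2 of 8 genes. Krt75, made in the companion layer, had a site of 792 bp at chr15:101573888-101574679 that covered its start. Krt25 had a narrow site of 301 bp, chr11:99323839-99324139. By contrast, Krt71, Krt72 and Krt73 lay 26994, 13115 and 29001 bp from the nearest site, and Krt26, Krt27 and Krt28 lay 3580 to 8096 bp away. The type II genes of the sheath thus spanned the whole range of the family, from a start inside a site to the most distant start.

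Among hair shaft keratins, which are rich in cysteine and are cross-linked in the cortex and cuticle, 3 of 15 had a site, all on chromosome 15. Krt87 had a site of 1046 bp at chr15:101438132-101439177 and Krt86 a site of 752 bp at chr15:101472864-101473615, both over the start. At Krt84 a site of 478 bp, chr15:101529405-101529882, lay 459 bp from a noncoding start but 2938 bp from the coding one. The 9 type I hair keratins of chromosome 11 (Krt31, Krt32, Krt33a, Krt33b, Krt34, Krt35, Krt36, Krt39 and Krt40) had 0 sites within 1 kb of a start, with distances of 1649 to 10783 bp. On chromosome 15, Krt81, Krt82 and Krt83 had none either, at 4614, 2416 and 5407 bp.

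The last 7 genes are less well placed in an epithelium, and 2 of them had a site. Krt222 had a site of 1232 bp at chr11:99243513-99244744 over the starts of both coding transcripts. Krt79 had a site of 813 bp at chr15:101938843-101939655, which lay 669 bp downstream of its coding start, and a narrow site of 249 bp, chr15:101929835-101930083, which lay 888 bp from a noncoding start. Krt24, Krt42, Krt78, Krt88 and Krt90 had no site in the window, and Krt42 was the most distant of the chromosome 11 genes at 11841 bp.

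The rule counts noncoding starts as well, and a stricter reading left fewer keratins. With starts of protein-coding transcripts alone, 14 of 53 genes (26.4%) had a site within 1 kb, 7 on either chromosome, beside 69.3% of coding genes. Krt84 and Krt1 were the genes lost. A site covered a coding start in 10 genes (18.9%), 5 on either chromosome, beside 63.4%. On the other hand, 26 keratin genes (49.1%) had a site over the gene body, beside 77.1%, and 25 had a site neither there nor within 1 kb of a start. The median distance from coding start to site was 3749 bp in keratins and 0 bp in all coding genes, and 7 keratins were over 10 kb away, 5 of them on chromosome 15.

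**Figure D2:**
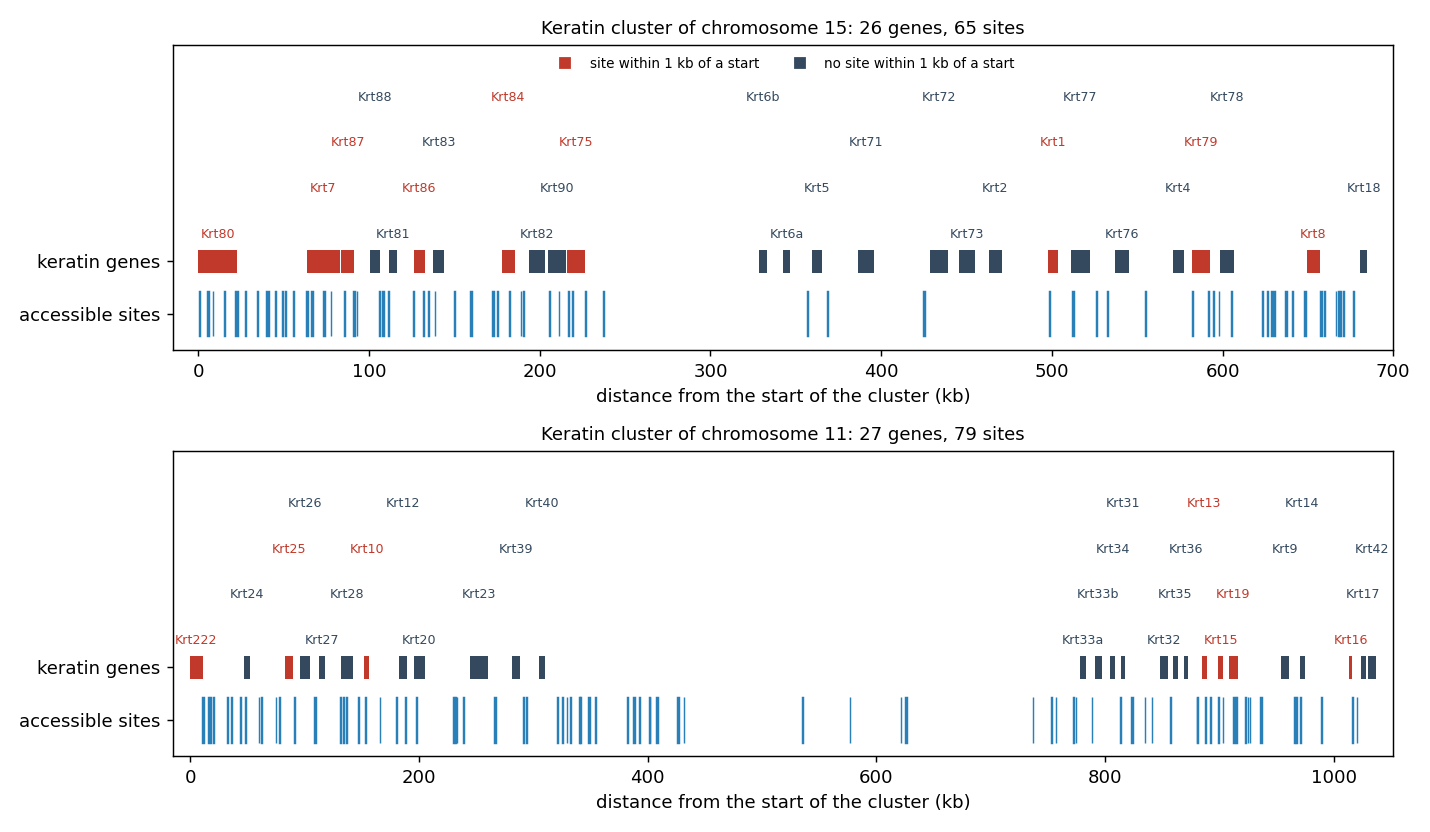
Positions of keratin genes (upper row of each panel) and accessible sites (blue, lower row) along the clusters of chromosome 15 and chromosome 11, in kb from the start of each cluster. Genes with a site within 1 kb of a start are red and the others dark. The 65 sites of chromosome 15 leave 119.2 kb free around Krt6b and Krt6a, and the longest free stretch among the 79 sites of chromosome 11, 109.8 kb, holds no keratin start.

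Taken over their whole length, the clusters were about as dense in sites as their chromosomes. The cluster of chromosome 15, chr15:101347444-102032027, held 65 sites, or 94.9 per Mb, which is 0.953 times the density of the whole chromosome (99.7 per Mb of known sequence). The cluster of chromosome 11, chr11:99232761-100269871, held 79 sites, or 76.2 per Mb, beside 76.1 per Mb for its chromosome, a ratio of 1.00. With 50 kb removed on both sides the ratios were 0.772 on chromosome 15 and 0.953 on chromosome 11. Without Krt8, Krt18 and Krt80 the ratio of chromosome 15 was 0.739, and without Krt222 that of chromosome 11 was 0.955. Sites covered 6.41% of the first cluster and 5.27% of the second, beside 6.71% and 5.71% of the chromosomes. The keratin cluster on the site-rich chromosome 15 was 1.25 times as dense in sites as that on chromosome 11, and the chromosomes themselves differed 1.31-fold. Among consecutive tiles of 1 Mb, the density of the cluster was above that of 44.6% of 101 tiles on chromosome 15 and of 50.4% of 119 tiles on chromosome 11.

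Coding genes, by contrast, were crowded in the clusters. They held 42.4 and 65.6 coding genes per Mb, beside 7.54 and 13.4 per Mb on chromosomes 15 and 11. Of the 144 sites in both clusters, 18 (12.5%) were within 1 kb of a keratin start. A further 24 had their middle in the body of a keratin gene, and 102 lay outside both. The start of any coding gene lay within 1 kb of 10 of 65 sites on chromosome 15 and 19 of 79 on chromosome 11. Over all sites of the genome this share was 13.6%. The share at keratin starts was 15.4% on chromosome 15 and 10.1% on chromosome 11. The widest sites away from a keratin start were 2204 bp at chr15:101975836-101978039, between Krt78 and Krt8, and 1515 bp at chr11:99580713-99582227, near the start of the keratin-associated gene Krtap1-5. Sites of 1503 bp at chr15:101387270-101388772, between Krt80 and Krt7, and of 1463 bp at chr11:99341546-99343008, upstream of Krt26, followed.

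Within the chromosome 15 cluster the sites gathered at both ends. Counted in segments of 100 kb from the Krt80 end, the density was 190, 140, 60, 20, 20 and 80 sites per Mb, and the last segment of 85 kb with Krt78, Krt8 and Krt18 had 166 per Mb. The low segments hold Krt6b, Krt6a, Krt5, Krt71, Krt72, Krt73 and Krt2, keratins of the epidermis and the root sheath. Of the 50-base words in these segments 11.9% and 4.37% were repeated, the first being the highest share of the chromosome 15 segments, and the part of these repeats in the low site number was not tested. The middle of the chromosome 15 cluster thus fell well under the chromosome mean of 99.7 per Mb and its ends were above it.

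On chromosome 11 the low part held no keratin gene. The segments from Krt222 onward had 130, 100, 70, 110, 50, 20, 20, 60, 100 and 110 sites per Mb, and the last one of 37 kb with Krt16, Krt17 and Krt42 had 53.9 per Mb. The segments of 20 per Mb lay in the block of keratin-associated protein genes that splits the type I cluster, and 26.9% and 24.6% of their 50-base words were repeated. The part of these repeats in the low site number was not tested. The keratin genes of chromosome 11 therefore stood in segments of 53.9 to 130 sites per Mb, whereas 7 keratin genes of chromosome 15 stood in segments of 20 per Mb.

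**Figure D3:**
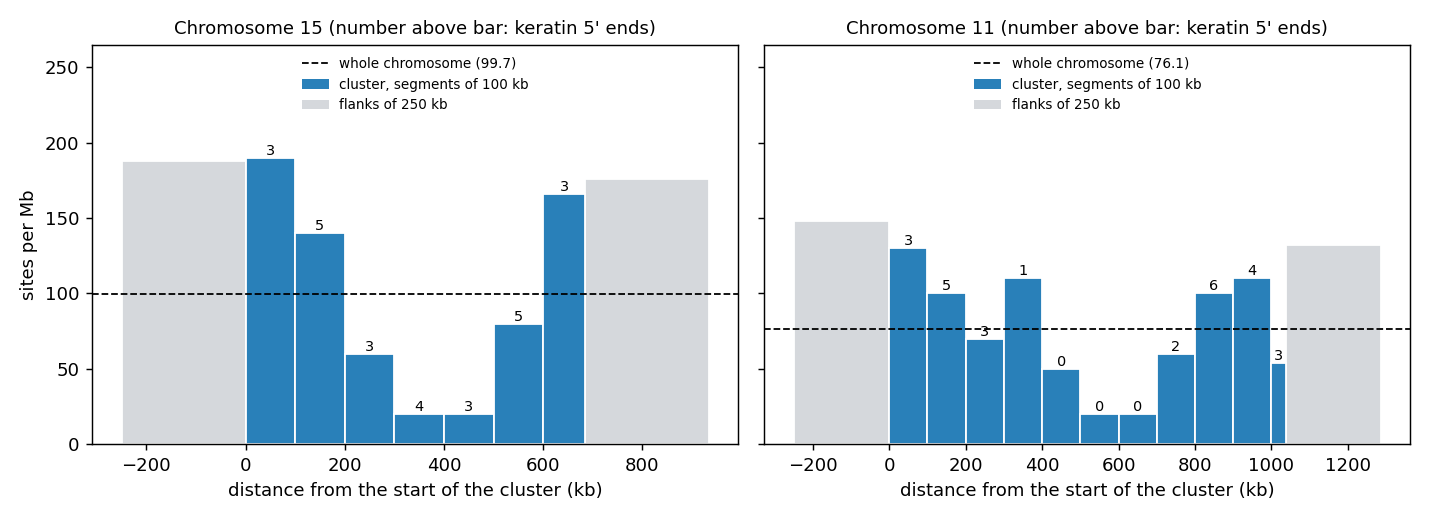
Accessible sites per Mb (vertical axis) along each keratin cluster in segments of 100 kb (blue, the last segment shorter) and in the flanks of 250 kb on either side (grey), against the distance in kb from the start of the cluster. Numbers above the bars count keratin 5′ ends and the dashed line is the whole chromosome. Both clusters fall to 20 sites per Mb in their interior and all 4 flanks lie at 132 to 188 per Mb.

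The flanks of 250 kb were richer in sites than either cluster. They held 188 and 176 sites per Mb on the sides of the chromosome 15 cluster and 148 and 132 per Mb beside that of chromosome 11. The flanks after the clusters begin with the translation factor genes Eif4b, next to Krt18, and Eif1, next to Krt42. Of the coding genes that start in the flanks, 6 of 7 and 10 of 11 on chromosome 15 and 4 of 6 and 8 of 9 on chromosome 11 had a site within 1 kb of a start. Each flank thus had a larger fraction of genes passing the rule than the keratins of either cluster.

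The longest stretches without a site lay over keratin genes on chromosome 15. The first, chr15:101584868-101704084, was 119.2 kb long, held the 5′ ends of Krt6b and Krt6a, and was the 28th longest of 10032 steps between neighbouring sites on the chromosome. The next measured 72.4 kb with Krt72, Krt73 and Krt2, and 55.9 kb with Krt71. Together the 3 steps over 50 kb made up 36.2% of the cluster, beside 17.1% of the chromosome. In the first stretch 16.3% of the 50-base words were repeated, and in the others 3.84% and 3.53%. The chromosome 11 cluster had 2 such steps, 109.8 and 103.6 kb long and both without a keratin 5′ end, which made up 20.6% of it, beside 27.7% of its chromosome. The median step was near that of the chromosome in both, at 5556 bp beside 5552 bp on chromosome 15 and 6264.5 bp beside 6416 bp on chromosome 11.

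The base composition at the 5′ ends was shared across the family. A 5′ end was called CpG-rich when, in the 500 bp on either side, G and C made up over 0.5 of the bases and CpG dinucleotides reached over 0.6 of the number expected from the bases (the CpG ratio). None of the 53 keratin genes met this, beside 9738 of 21938 coding genes (44.4%). A site within 1 kb was found for 97.1% of CpG-rich coding genes and for 49.8% of the 12200 others. The 16 of 53 keratins (30.2%, interval up to 43.5%) are therefore best read beside 49.8% rather than 70.8%. The median CpG ratio of keratins was 0.302, beside 0.552 for all coding genes, whereas the median GC content was close, 54.1% beside 54.7%.

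**Figure D4:**
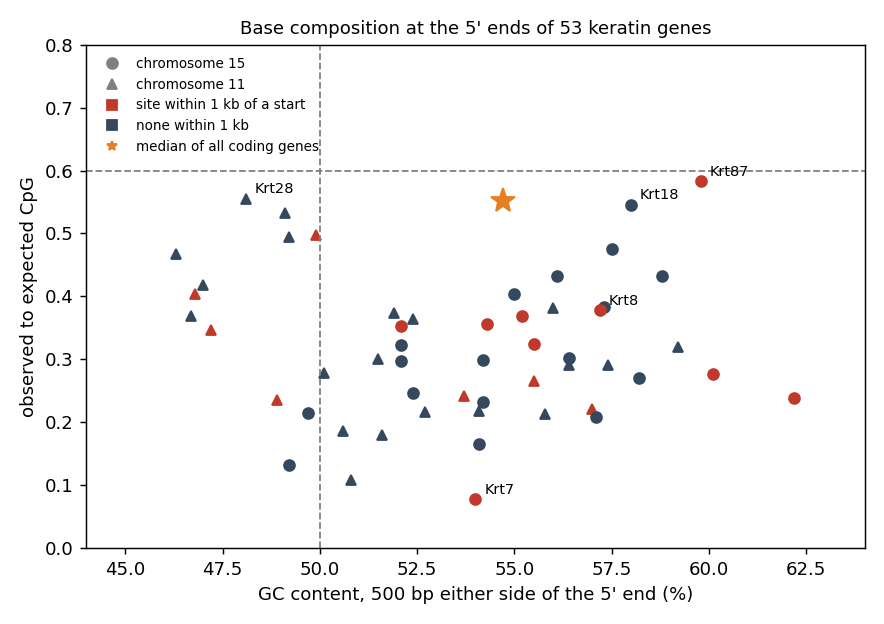
Observed to expected CpG ratio (vertical axis) against GC content in percent (horizontal axis) in the 500 bp on either side of the 5′ end of the 53 keratin genes, with circles for chromosome 15, triangles for chromosome 11 and red for a site within 1 kb of a start. Dashed lines are the limits for a CpG-rich end, and no gene lies in the upper right field. The star marks the medians of all coding genes, 54.7% and 0.552.

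Nearest to the limit was Krt87 with a CpG ratio of 0.583, which had a site, followed by Krt28 with 0.555 and Krt18 with 0.546, which had none. Krt8 had 0.378. The lowest ratio, 0.0779, belonged to Krt7, whose 5′ end in GENCODE was covered by a site. The medians were 0.335 in the 16 keratins with a site and 0.301 in the 37 without. The ratio hence did not separate the keratins with and without a site.

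The letters TATAAA were more frequent at keratins than at all coding genes, and GGGCGG was less frequent. TATAAA is a form of the TATA box, at which TBP assembles the initiation complex. It was searched on either strand between 250 bases before and 50 bases after the 5′ end. A match was found in 25 of 53 keratins (47.2%), beside 12.6% of coding genes. TATAAA was present in 6 of the 16 keratins with a site and in 19 of the 37 without. Only exact letters counted, at any place in the window, so a match need not be a working TATA box. The letters ATAAAA in the Krt75 and Krt5 runs above did not count. The GC box GGGCGG, bound by SP1-like factors, was found in 6 keratins (11.3%), beside 43.0%. These were Krt222, Krt14, Krt80, Krt87, Krt81 and Krt75, of which 4 had a site. In the Krt75 run above it reads CCGCCC, on the other strand, 52 to 47 bases before the start. GGGCGG holds a CpG, and none of the 53 keratins had a CpG-rich 5′ end, beside 44.4% of coding genes. Motif shares among coding genes without a CpG-rich 5′ end were not counted. The part of base composition in these differences was therefore not tested.

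Other motifs were rare in these windows. The AP-1 letters were found in the Krt4 window alone (1.89%), beside 4.59% of coding genes. The TEAD motif GGAATG was present in 5 keratins (9.43%), beside 13.5%, namely Krt20, Krt14, Krt17, Krt7 and Krt78. The ETS letters CCGGAAG and the CTCF motif were in 0 keratin windows, beside 10.8% and 0.556% of coding genes. CCGGAAG holds a CpG as well, so the limit given for GGGCGG applies to it too.

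In the sites themselves the AP-1 letters were about as frequent as elsewhere. They were found in 44 of the 144 sites of both clusters (30.6%), beside 29.4% of all sites. At keratin starts 8 of 18 sites (44.4%) held a match, and the median width of these sites was 875 bp, beside 619 bp over all sites. Matches were found at Krt8 (3), Krt13, Krt16 and Krt84 (2 each) and at Krt19, Krt80, Krt86 and Krt79 (1 each). In the middle 200 bp of each site the share was 22.2% at keratin starts (4 of 18), 9.23% in the chromosome 15 cluster, 21.5% in the chromosome 11 cluster and 14.7% over all sites.

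The CTCF motif, bound by the factor that anchors chromatin loops, was found in 10 of the 144 sites (6.94%), beside 4.49% of all sites, and in 0 of the 18 at keratin starts. In the middle 200 bp the shares were 2.78% and 2.84%. Of these 10 sites, 6 were on chromosome 15. Shown are the matches of the 4 sites that lie at the stretch around Krt6b and Krt6a, between the stretches around Krt71 and Krt72, and between Krt78 and Krt8, with 10 bases on either side, on the strand of the motif, which is in capitals.
Before the Krt6b stretch, chr15:101584806-101584817, plus strand: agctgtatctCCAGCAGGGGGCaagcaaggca
Between the Krt71 and Krt72 stretches, chr15:101772260-101772271, minus strand: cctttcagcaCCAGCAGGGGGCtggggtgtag
Between Krt78 and Krt8, chr15:101977169-101977180, plus strand: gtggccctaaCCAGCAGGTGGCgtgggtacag
Between Krt78 and Krt8, chr15:101984513-101984524, minus strand: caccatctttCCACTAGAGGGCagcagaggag
The match lay in the middle 200 bp of its site in the first of these 4 and outside it in the other 3. The first 2 matches read the same 12 letters on opposite strands, and the last 2 lay in neighbouring sites on the side of Krt8 away from Krt18. The other chromosome 15 sites with a match, chr15:101496958-101497673 and chr15:101519551-101520384, had it in their middle 200 bp. Neither these nor the chromosome 11 sites with a match border a stretch of over 50 kb without a site. No test was made of whether sites with a match are placed nearer to long stretches than other sites.

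Gene families that work with keratins were counted by the same rule. Keratin-associated proteins, which form the matrix of the hair fibre, had a site at 11 of 57 genes (19.3%), and at 6 of the 23 inside the chromosome 11 cluster. Cornified envelope genes, such as those for loricrin and involucrin, had one at 9 of 43 (20.9%). In contrast, 14 of 15 genes for other intermediate filaments (93.3%), vimentin, the lamins and the neurofilament chains included, and 12 of 16 desmosome and plakin genes, which tie keratin filaments to cell junctions, had a site. Among the other intermediate filament genes, Gfap passed only through another start, since its coding start was 1949 bp from a site. Of these families, the keratin-associated and cornified envelope genes had 0 CpG-rich 5′ ends, like the keratins, and the other lists had 10 and 9.

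**Figure D5:**
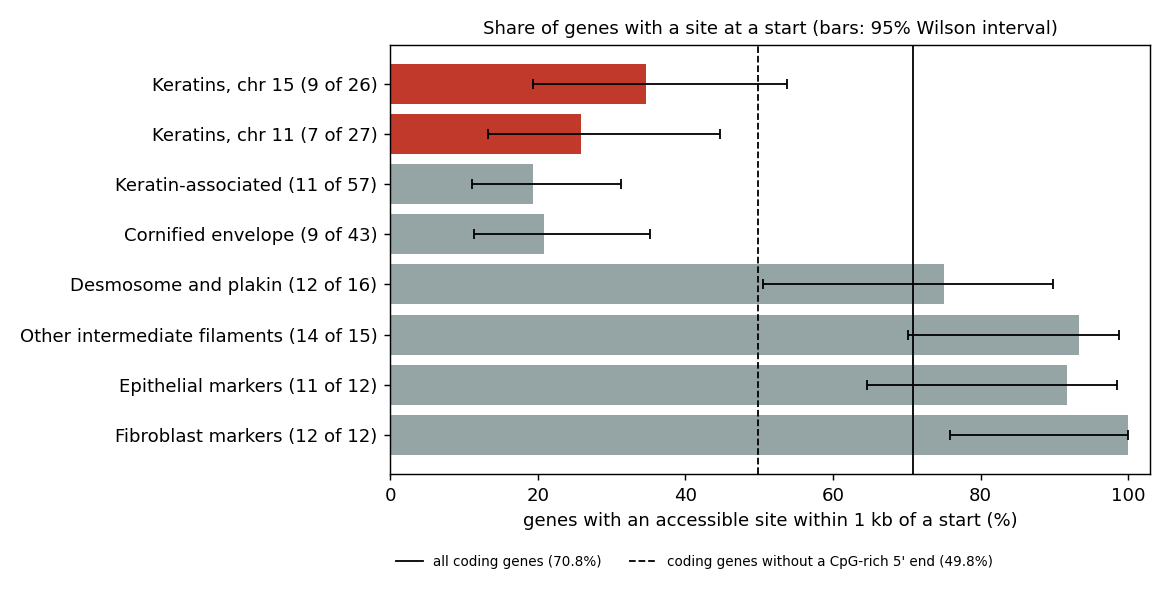
Percent of genes with an accessible site within 1 kb of a start (horizontal axis) in the keratins of either chromosome (red) and in other gene lists (grey), with the number of genes in parentheses and 95% Wilson intervals as error bars. The solid line is the share of all coding genes, 70.8%, and the dashed line that of coding genes without a CpG-rich 5′ end, 49.8%. Keratins (34.6% and 25.9%), keratin-associated genes (19.3%) and cornified envelope genes (20.9%) lie to the left of both lines.

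Marker genes of fibroblasts and of epithelia were alike in that nearly every gene had a site within 1 kb of some start. The same rule found a site for 70.8% of all coding genes. Fibroblast markers had a site at 12 of 12 genes, among them Col1a1, Pdgfra and Vim. Epithelial and keratinocyte markers had one at 11 of 12, Cdh1 and Epcam included, with Trp63 as the exception. Among these, Rab25 passed only through another start, since its coding start was 3182 bp from a site. Melanocyte and immune markers had one at 2 of 6, Cd68 and Mitf. A CpG-rich 5′ end was found at 2 of the 12 fibroblast, 5 of the 12 epithelial and 1 of the 6 melanocyte and immune markers. Expression was not examined here, so the presence of a site at a keratin start is not read as expression of that keratin.

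Genes that share the clusters with the keratins seldom had a site at a start either. In the chromosome 11 cluster 10 of 41 other coding genes (24.4%) had a site within 1 kb of a start, which were Krtap3-1, Krtap1-5, Krtap2-4, Krtap4-2, Krtap4-13, Krtap16-1, Gm11939, Gm11562, Gm11563 and Gm11568. In the chromosome 15 cluster 0 of the 3 others did. Leaving out Krt8 and Krt18 gave 15 of 51 keratins (29.4%) and 8 of 24 on chromosome 15 (33.3%). Only Krt8 of this pair had a site, so the share could change only a little.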

How the data were processed

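The authors trimmed the reads, aligned them with BWA to mm10, filtered them with SAMtools, merged replicates and called narrow peaks with MACS2. The deposited list gives chromosome, start and end of each site over all samples, without counts, scores or values per library. Versions, the peak threshold and any Tn5 shift were not given in the sources used here, and each can change the number and width of sites. Members and gene lists were chosen with earlier results of these data known.

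Starts were read as counted from 0 and are printed counted from 1. Against GRCm38, 0 sites reached past a chromosome end. The 242 sites on other sequences were left out. Every transcript start in GENCODE mouse release M21 was used, and a site had to overlap the window of 1 kb on either side of a start by at least 1 bp. A cluster ran from the first to the last base of its member genes. Repeated 50-base words were counted over the whole genome on both strands. All 53 members could be named, and those with a site, Krt8 and Krt18 are given in full. Scripts ran in Python 3.11.15 with Numba 0.67.0, SciPy 1.17.1, NumPy 2.4.6 and, for figures, Matplotlib 3.10.9. The site counting was tested on simulated data. No test over samples was possible, and alternatives changed the window, the starts, the sites and the span.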

Additional observations from a re-analysis of the deposited data

How the results depend on the processing

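Of 87 alternatives for 11 results, 76 stayed close to the value reported and 11 moved it, a count by more than 1.5 times and a density or coverage beyond the Poisson interval of its site number. A window of 3 kb raised the keratins with a site to 25, with 14 on chromosome 15 and 11 on chromosome 11, and the sites at Krt8 to 2, while Krt18 stayed at 0. Dropping the sites narrower than 619 bp, the median, left 33 sites and 4.76% coverage in the chromosome 15 cluster, and 37 sites and 3.54% in that of chromosome 11. With 50 kb removed on both sides, coverage of the chromosome 15 cluster was 4.76%, and without Krt8, Krt18 and Krt80, which lie at its ends, 40 sites, 4.36% and a density of 0.739 times that of the chromosome remained. RefSeq starts in place of GENCODE starts, an alternative chosen after seeing the data as were coding starts alone and positions counted from 1, gave 14 keratins. With RefSeq starts Krt10, Krt1 and Krt84 were lost, and Krt78 was gained with a start 397 bp from a site. Coverage by site middles was not run, since a middle covers no bases. No paired analysis was possible because no value belongs to a library, and leaving out a library was not possible for the same reason. The depth is unknown, so a missing site may lie under the limit of detection.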
